A study of Mus musculus with 10 samples.

Results

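The genes described here are 29 interferon-inducible and MHC class I antigen presentation genes, chosen by symbol and all found among the 24016 gene symbols of a global run-on sequencing (GRO-seq) table from mouse duodenal organoids. GRO-seq labels and sequences the transcripts that polymerases already at work on a gene lengthen in a short run-on reaction, so it reads transcription rather than stored mRNA. Organoids in Matrigel were given EGF, Noggin and R-spondin in both media. WENRC, called the stem cell medium in the labels, added Wnt3A and CHIR-99021, a GSK3 inhibitor that activates Wnt signalling, and ENRI, called the enterocyte differentiation medium, left both out and added IWP-2, an inhibitor of Wnt secretion. There were 2 GRO-seq libraries a medium, with titles that number mouse 1 and mouse 2, and 1 ChIP-seq library for H3K27me3, the histone mark that Polycomb repressive complex PRC2 writes and that is found at silent genes. Strain, age and sex are not given in the sources used here, and a library could be tied to its medium and to a batch number in the authors' file header but not to a mouse. Values below are given for batch 1 and then batch 2.

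Interferons bind receptors at the cell surface and activate JAK kinases, which phosphorylate STAT proteins. The complex ISGF3, which contains STAT2 and IRF9, binds the interferon-stimulated response element (ISRE), and interferon gamma acts through the gamma-activated site (GAS). The target genes encode RNA sensors, antiviral effectors and the MHC class I pathway, in which immunoproteasome subunits cut proteins into peptides, the TAP transporter carries these into the endoplasmic reticulum, and heavy chains such as H2-K1 pair with B2m to show them at the cell surface. Intestinal epithelial cells respond strongly to type III interferon.

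Promoters are shown for 9 members that the results below turn on, to show which letters of the known ISRE and GAS elements they hold. RefSeq's promoter table (build GRCm38.p6, another build than the mm9 of the GRO-seq table) held windows of 300 bases, 250 before and 50 after the start, for 22 of the 29 members. Mx1, Mx2, Nlrc5, Oas2, Tap2, Usp18 and Zbp1 had none. The 160 bases before the start are printed 5′ to 3′ along the gene's strand, for H2-K1, Irf1 and Ifit2 from the first of 2 windows. Capitals mark an ISRE core (GAAANNGAAA), a GAS core (TTCNNNGAA) or a shifted form of the ISRE (GAANNGAAAC), found on either strand and free to overlap.
B2m: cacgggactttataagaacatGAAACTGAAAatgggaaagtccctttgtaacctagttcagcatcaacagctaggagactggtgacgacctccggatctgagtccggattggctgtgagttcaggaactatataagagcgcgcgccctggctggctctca
H2-K1: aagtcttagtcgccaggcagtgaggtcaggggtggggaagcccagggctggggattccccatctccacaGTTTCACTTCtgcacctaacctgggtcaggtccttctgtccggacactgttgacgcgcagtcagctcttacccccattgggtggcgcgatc
H2-D1: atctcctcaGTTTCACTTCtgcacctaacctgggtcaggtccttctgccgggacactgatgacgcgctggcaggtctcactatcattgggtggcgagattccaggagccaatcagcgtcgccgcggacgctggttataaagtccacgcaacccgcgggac
Irf1: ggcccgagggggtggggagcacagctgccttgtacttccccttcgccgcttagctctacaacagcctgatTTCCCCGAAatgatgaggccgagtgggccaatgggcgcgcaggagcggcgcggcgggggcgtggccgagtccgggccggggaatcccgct
Ifit3: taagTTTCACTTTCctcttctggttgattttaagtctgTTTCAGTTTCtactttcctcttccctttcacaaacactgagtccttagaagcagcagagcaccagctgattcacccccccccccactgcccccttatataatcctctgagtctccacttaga
Isg15: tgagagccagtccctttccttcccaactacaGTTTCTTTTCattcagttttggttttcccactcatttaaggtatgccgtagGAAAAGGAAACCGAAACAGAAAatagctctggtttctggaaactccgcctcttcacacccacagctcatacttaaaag
Oas1a: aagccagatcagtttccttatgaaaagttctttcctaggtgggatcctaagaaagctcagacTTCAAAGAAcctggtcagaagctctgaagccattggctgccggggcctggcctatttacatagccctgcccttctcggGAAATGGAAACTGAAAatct
Bst2: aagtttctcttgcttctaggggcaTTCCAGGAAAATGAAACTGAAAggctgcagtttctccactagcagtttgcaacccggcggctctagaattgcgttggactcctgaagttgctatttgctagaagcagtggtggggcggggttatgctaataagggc
Ifit2: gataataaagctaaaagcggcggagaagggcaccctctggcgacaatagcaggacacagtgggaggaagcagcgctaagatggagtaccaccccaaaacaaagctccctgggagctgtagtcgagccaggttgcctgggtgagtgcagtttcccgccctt
These stretches are chr2:122147527-122147686 (B2m, plus strand), chr17:34000348-34000507 (H2-K1, minus), chr17:35262934-35263093 (H2-D1, plus), chr11:53769854-53770013 (Irf1, plus), chr19:34583369-34583528 (Ifit3, plus), chr4:156200819-156200978 (Isg15, minus), chr5:120907526-120907685 (Oas1a, minus), chr8:71537473-71537632 (Bst2, minus) and chr19:34550534-34550693 (Ifit2, plus).

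In these windows B2m held an ISRE core 139 to 130 bases before its start. H2-K1 and H2-D1 held the same shifted element, read as GTTTCACTTC, 91 to 82 and 151 to 142 bases before their starts. Irf1 held a GAS core at 90 to 82. Ifit3 held ISRE cores at 156 to 147 and 122 to 113. Isg15 held 3 overlapping ISRE cores between 78 and 57 and a shifted form at 129 to 120. Oas1a held overlapping ISRE cores between 20 and 5 and a GAS core at 98 to 90, and Bst2 held a GAS core at 136 to 128 that overlaps ISRE cores between 130 and 115. The only match in the Ifit2 window was a GAS core 241 to 233 bases before the start, outside the printed stretch. Over all members, 11 of 22 windows held an ISRE core, against 3.99% of the symbols with a window. A GAS core lay in 5 of 22 (9.55% of all symbols) and the shifted form in 7 of 22 (2.01%). ISRE cores were found both in members with higher levels in ENRI (B2m, Ifit3) and in members with lower levels (Oas1a, Bst2), and a match of letters does not show that a factor was bound.

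On the log2(RPKM + 0.5) scale the class I chains and Irf1 had the largest differences in favour of ENRI among the members that could be tested. Several antiviral effectors had lower levels in ENRI, as did 65.7% of all tested genes. The ratio of mean levels, ENRI over WENRC, was 2.17 for H2-K1, 1.99 for H2-D1, 2.56 for B2m, 2.48 for Irf1 and, at a level under 1 RPKM, 2.61 for Ifit3, against 0.392 for Oas1a and 0.515 for Bst2. Levels are RPKM, reads per kilobase of transcript scaled to library size, and changes are log2(RPKM + 0.5), ENRI minus WENRC, fitted with limma and adjusted by Benjamini-Hochberg over all tested genes. Of the 29 members, 15 reached 0.5 RPKM in at least 2 libraries and were tested, and 0 of them passed an adjusted p of 0.05, where 0.147% of the 11602 tested genes did (0.0603% higher and 0.0862% lower in ENRI). At an unadjusted p under 0.05 there were 6 of the 15, namely Irf1, Ifit3, H2-K1, H2-D1 and B2m higher and Bst2 lower in ENRI. Of all tested genes 39.0% were under that limit, 12.0% higher and 26.9% lower. The median change of the 15 was 0.12, against −0.21 over all tested genes. It was 1.01 for the 4 tested class I members and −0.04 for the other 11. In bulk libraries, fewer cells of a type and less RNA per cell cannot be told apart.

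Both ENRI libraries lay above both WENRC libraries for 11 of the 29 members, where 15.1% of all symbols did, and below them for 7, where 33.4% did. The 11 were Irf1, Ddx58, Ifit3, Mx1, H2-K1, H2-D1, B2m, Tap1, Tap2, Psmb8 and Psmb9, and the 7 were Zbp1, Ifit2, Oas1a, Mx2, Rsad2, Bst2 and Isg15. By role, 7 of the 8 class I members were above and 0 below. Of the other 21 members 4 (19.0%) were above and 7 (33.3%) below, near the shares of all symbols (15.1% and 33.4%). RPKM was also multiplied by a factor per library that came from the library's median of log2(RPKM + 0.5) over tested genes. This rescaling is not the centring of log2 values used as an alternative in limma, and low levels can order differently under the latter. After it 14 were above and 6 below, with Stat2, Ifit1 and Usp18 joining the first group and Isg15 leaving the second. Among tested genes the shares above and below were then 28.7% and 41.7%, against 22.99% and 49.7% without rescaling. The 14 and 6 include members below the filter, and no share over all symbols was computed with rescaling. An exact two-sided permutation test of 2 libraries against 2 cannot give a p below 0.333, so these counts are descriptions.

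**Figure D1:**
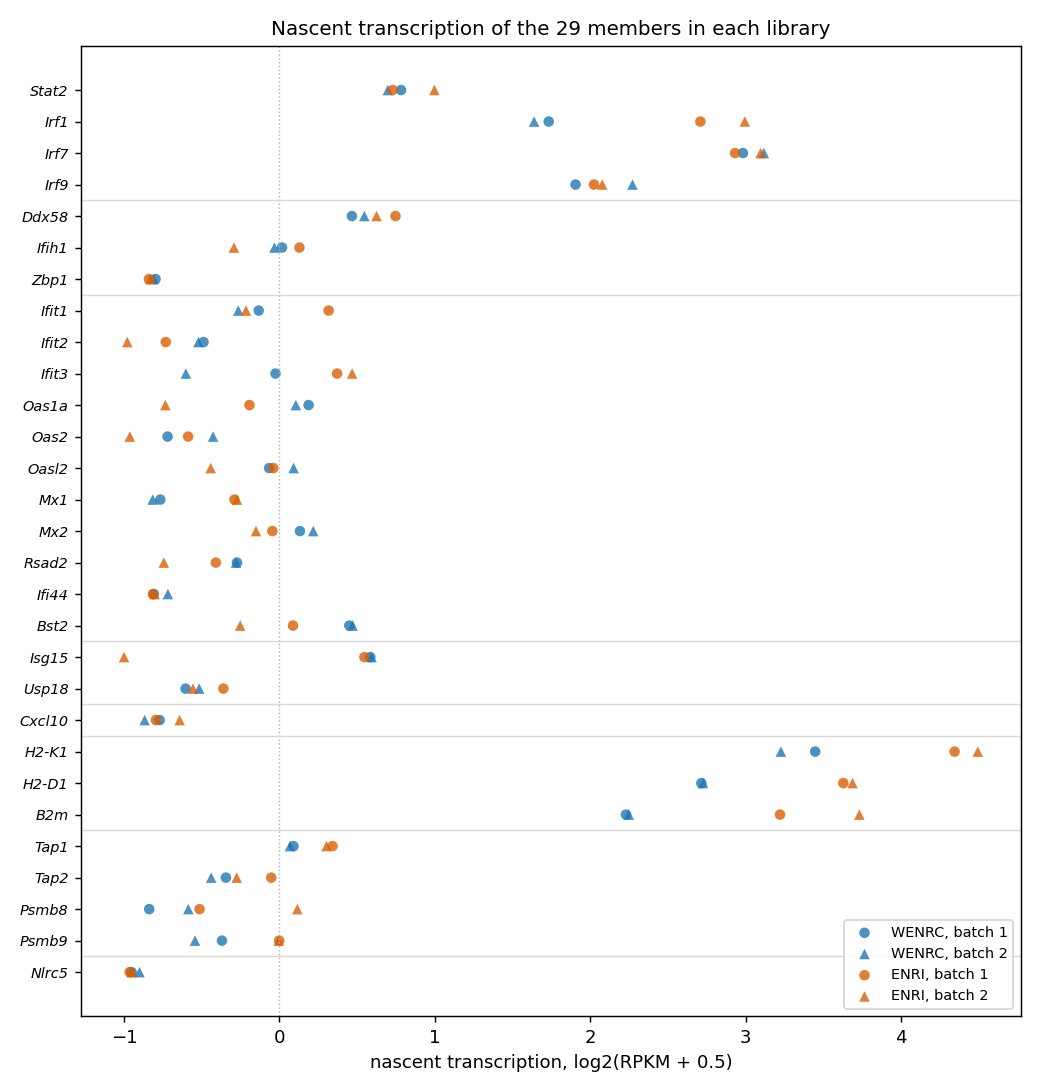
Nascent transcription of the 29 members as log2(RPKM + 0.5), with 1 point per library: circles for batch 1, triangles for batch 2, blue for WENRC and orange for ENRI, and the dotted line at 0. The ENRI points of Irf1, H2-K1, H2-D1 and B2m lie to the right of both WENRC points, while the ENRI batch 2 point of Isg15, with 0 reads, sits at the floor of the scale.

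Recovered reads over all transcripts were 25.84 and 9.25 M in WENRC and 29.13 and 15.79 M in ENRI. The summed level of 7 enterocyte markers was 36.4 and 12.7 RPKM in WENRC and 533 and 719 in ENRI, and that of 5 stem cell markers 16.9 and 22.4 RPKM in WENRC and 1.69 and 2.27 in ENRI, in the direction of the labels. The enterocyte sum was thus higher in ENRI, as the class I chains were, and the stem cell sum was lower. The part of both marker lists in the differences was not tested. Of 13 immune cell markers in the table, only Cd68 passed the filter. The list summed to 13.9 and 17.8 RPKM in WENRC and 5.96 and 6.10 in ENRI, of which Cd68 alone was 13.1 and 16.5 and then 5.25 and 5.47, and Nkg7 was at 0 in every library. Over the 13, both ENRI libraries were below both WENRC libraries for 4, where 33.4% of all symbols were. They were above for 1 (Cd8a, at most 0.0777 RPKM), where 15.1% of all symbols were, and overlapping for 8. The part of immune cells in the results was not tested. The 5 endothelial markers summed to 0.0923 to 0.178 RPKM and the 8 mesenchymal markers to 1.08 to 1.71. The 9 epithelium markers summed to 135 and 138 RPKM in WENRC and 208 and 172 in ENRI. Both ENRI libraries were above both WENRC libraries for 5 of these 9, below for 1 and overlapping for 3. The part of the epithelium list in the differences was not tested.

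The transcription factors of the pathway split into Irf1 and the rest. Irf1, an activator of interferon-responsive and class I genes that is itself induced by interferon, had 2.82 and 2.61 RPKM in WENRC and 6.04 and 7.47 RPKM in ENRI. Both ENRI libraries were above both WENRC libraries, from 2.72 ± 0.149 to 6.75 ± 1.01 RPKM (mean ± SD, n = 2 libraries per medium). The log2 change was 1.17 ± 0.19 (SE), with an adjusted p of 0.0560 in limma. Irf7, which drives type I interferon genes, had the highest mean of these factors in both media, at 7.40 and 8.18 RPKM in WENRC and 7.13 and 8.05 in ENRI. Irf9, the DNA-binding subunit of ISGF3, had 3.25 and 4.33 RPKM in WENRC and 3.57 and 3.72 in ENRI. Stat2, its partner, had 1.22 and 1.12 RPKM in WENRC and 1.16 and 1.496 in ENRI. The media overlapped for these 3 genes, with log2 changes of −0.04 ± 0.21, −0.04 ± 0.20 and 0.12 ± 0.15 (SE) for Irf7, Irf9 and Stat2. These signs are not stable: Irf7 and Irf9 turned positive with median centring (0.11 each) and Stat2 turned to −0.011 without the ENRI library of batch 2.

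For none of the 3 cytosolic sensors did the ENRI to WENRC ratio lie on the same side of 1 beyond counting error in both batches. That holds for libraries scaled to column totals, and the ratios were not computed under other scalings. Ddx58, which encodes the RNA sensor RIG-I, had 0.881 and 0.960 RPKM in WENRC and 1.18 and 1.04 in ENRI, a log2 change of 0.18 ± 0.12 (SE) with an adjusted p of 0.314 in limma. Its libraries did not overlap, but in batch 2 the ENRI to WENRC ratio was 1.09 with an exact 95% interval for counting error of 0.946 to 1.25. EdgeR and DESeq2, which scale the libraries differently, put the change of Ddx58 at 0.51 and 0.55 (adjusted p of 0.105 and 0.124). Ifih1, which encodes the RNA sensor MDA5, had 0.512 and 0.478 RPKM in WENRC and 0.593 and 0.316 in ENRI. Its ENRI libraries lay on either side of the WENRC pair, and its change of −0.07 ± 0.19 (SE) became 0.14 without the ENRI library of batch 2. Zbp1, a sensor of Z-form nucleic acids, was below the filter in all 4 libraries, with 0.0755 and 0.0703 RPKM in WENRC and 0.0586 and 0.0617 in ENRI, from 8 to 24 reads a library.

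The 11 antiviral effectors did not share a direction. The Ifit genes, whose proteins bind foreign RNA, lie together on chromosome 19 (mm9), with Ifit2 (NM_008332) at 34625184 to 34651024, Ifit3 (NM_010501) at 34658019 to 34663472 and Ifit1 (NM_008331) at 34715379 to 34724499. Ifit3 had 0.483 and 0.159 RPKM in WENRC and 0.793 and 0.883 in ENRI. Its ENRI libraries were the higher ones, with a log2 change of 0.73 ± 0.23 (SE) and an adjusted p of 0.0990 in limma. Leaving out a WENRC library moved it to 0.44 (batch 2 left out) or 1.02 (batch 1 left out), and edgeR and DESeq2 gave 1.54 and 1.61 (adjusted p of 0.122 and 0.0560). From reads, the ratio was 1.64 (1.21 to 2.24) in batch 1 and 5.56 (2.68 to 13.4) in batch 2, where the WENRC library held 8 reads. Ifit2, only 6995 bp from Ifit3, had the opposite order, with 0.213 and 0.197 RPKM in WENRC and 0.102 and 0.00735 in ENRI. Its reads were 142 and 47 in WENRC and 77 and 3 in ENRI, which gave ratios of 0.481 (0.360 to 0.639) and 0.0374 (0.00744 to 0.116). Ifit1 overlapped between the media, at 0.412 and 0.332 RPKM in WENRC and 0.745 and 0.361 in ENRI. All intervals on reads are exact, at 95%, with libraries scaled to column totals. They cover counting error only and hold no variation between libraries. PCR copies are not independent molecules, so the intervals may be too narrow even for counting error.

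The related GTPases Mx1 and Mx2, which block virus replication and lie 73175 bp apart on chromosome 16, also had opposite orders. Mx1 (NR_003520, annotated as a non-coding transcript) had 0.0878 and 0.0681 RPKM in WENRC and 0.318 and 0.327 in ENRI. These low levels rest on 36 and 10 reads against 147 and 82, with ratios of 3.62 (2.50 to 5.37) in batch 1 and 4.80 (2.48 to 10.4) in batch 2. Mx2 (NR_003508, also annotated as non-coding) had 0.596 and 0.662 RPKM in WENRC and 0.469 and 0.401 in ENRI, a log2 change of −0.27 ± 0.13 (SE) and an adjusted p of 0.190 in limma. Its ENRI libraries were both lower, although after quantile normalization the change was 0.016. Coding models of Mx1 and Mx2 held the same or nearly the same reads.

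Oas1a, a synthetase of the 2-5A signal that activates RNase L, had 0.639 and 0.576 RPKM in WENRC and 0.375 and 0.101 in ENRI. Both ENRI libraries were lower, with a log2 change of −0.61 ± 0.23 (SE) and an adjusted p of 0.129 in limma. Bst2, which encodes tetherin, a membrane protein that holds back budding virus, had 0.865 and 0.886 RPKM in WENRC and 0.562 and 0.339 in ENRI. Its ENRI libraries were again the lower ones, with a log2 change of −0.54 ± 0.16 (SE) and an adjusted p of 0.0921 in limma. Rsad2, the gene of viperin, stayed below the filter, with 0.327 and 0.323 RPKM in WENRC and 0.253 and 0.0970 in ENRI, and the ratio in batch 1 was 0.772 (0.586 to 1.02). Without the ENRI library of batch 2 the changes of Oas1a and Bst2 were −0.34 and −0.37, and without that of batch 1 they were −0.88 and −0.71, with limma calling both lower on the spread of the WENRC pair alone (adjusted p of 0.0164 and 0.0156).

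Oas2 and Oasl2, relatives of Oas1a, overlapped between the media. Oas2 had 0.107 and 0.244 RPKM in WENRC and 0.165 and 0.0130 in ENRI. Oasl2 had 0.455 and 0.565 RPKM in WENRC and 0.473 and 0.236 in ENRI. Both were thus lower in ENRI in batch 2 only, with ratios there of 0.0532 (0.0139 to 0.146) and 0.417 (0.292 to 0.593). The ENRI library of batch 2 held the lowest of the 4 levels for 9 members, Ifih1, Ifit2, Oas1a, Oas2, Oasl2, Mx2, Rsad2, Bst2 and Isg15, and also for 49.4% of all tested genes. Ifi44, an interferon-induced gene, was low throughout at 0.0712 and 0.108 RPKM in WENRC and 0.0685 and 0.0732 in ENRI.

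**Figure D2:**
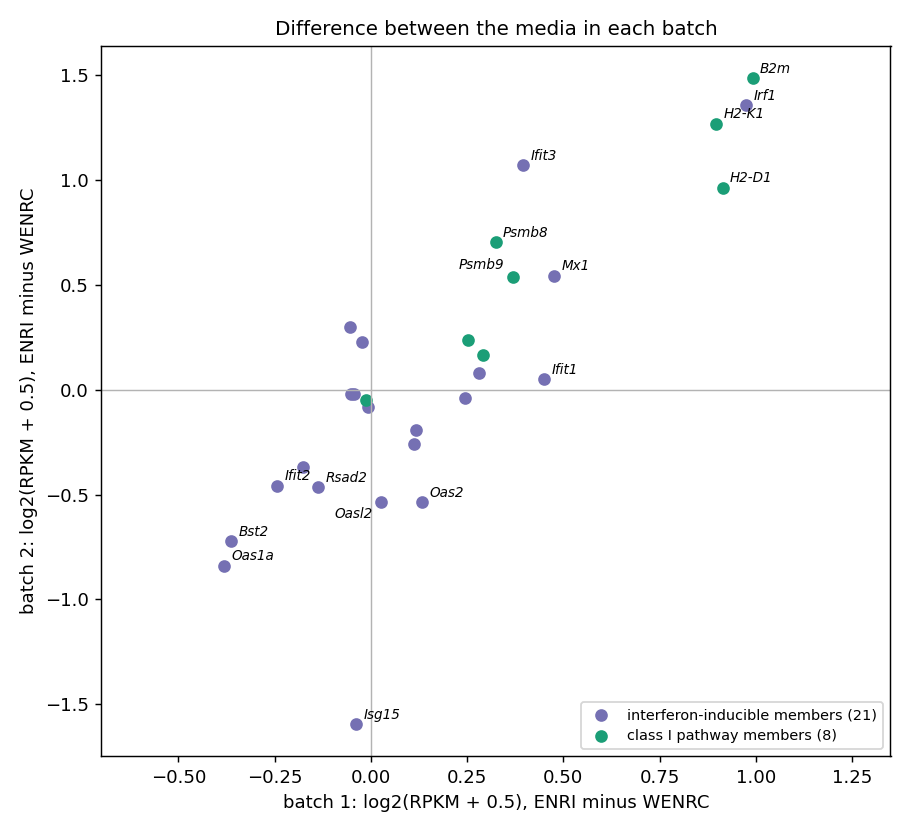
Difference between the media of each member in batch 1 (horizontal axis) and batch 2 (vertical axis), as log2(RPKM + 0.5), ENRI minus WENRC, with class I members in green and the others in purple and the largest differences named. B2m, Irf1, H2-K1 and H2-D1 lie at the top right between 0.90 and 1.48 in each batch, Oas1a and Bst2 at the bottom left, and Isg15 near 0 in batch 1 but at −1.59 in batch 2.

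Isg15, the ubiquitin-like modifier of the interferon response, had 0.999 and 1.01 RPKM in WENRC and 0.961 and 0 in ENRI. The WENRC pair and the ENRI library of batch 1 had nearly the same level, and the ENRI library of batch 2 alone had no read, against 36 and 13 in WENRC and 39 in ENRI of batch 1. A count of 0 there allows up to 0.136 RPKM, and the ratio in batch 2 had an upper limit of 0.192. The fitted change of −0.82 ± 0.54 (SE) had an adjusted p of 0.309 in limma, was −0.04 without that library and −1.59 without the ENRI library of batch 1. Usp18, which removes ISG15 from proteins and dampens interferon signalling, overlapped between the media at 0.158 and 0.199 RPKM in WENRC and 0.279 and 0.180 in ENRI. Cxcl10, a chemokine that attracts T cells, had 5 and 1 reads in WENRC and 5 and 5 in ENRI, so that a difference was not detectable at this depth.

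H2-K1, H2-D1 and B2m had the 3 highest means of all members in ENRI, and in WENRC Irf7 lay between H2-K1 and the other two. In mm9, H2-K1 (NM_001001892) lies on chromosome 17 at 34132957 to 34137278 and H2-D1 (NM_010380) at 35400039 to 35404442, and B2m (NM_009735) on chromosome 2 at 121973423 to 121978818. H2-K1, a classical heavy chain, had 10.4 and 8.86 RPKM in WENRC and 19.8 and 22.03 in ENRI. H2-D1, the other classical heavy chain, had 6.06 and 6.12 RPKM in WENRC and 11.9 and 12.4 in ENRI. B2m, the light chain, had 4.19 and 4.25 RPKM in WENRC and 8.83 and 12.8 in ENRI. For each gene both ENRI libraries were above both WENRC libraries, and the ratio was close to 2 in batch 1, at 1.90 (1.78 to 2.04), 1.96 (1.79 to 2.14) and 2.11 (1.91 to 2.32) for H2-K1, H2-D1 and B2m. In batch 2 it was 2.49 (2.21 to 2.80), 2.03 (1.76 to 2.34) and 3.01 (2.59 to 3.50). The means went from 9.63 ± 1.09 to 20.9 ± 1.57 RPKM for H2-K1, from 6.09 ± 0.0365 to 12.1 ± 0.367 for H2-D1 and from 4.22 ± 0.0430 to 10.8 ± 2.80 for B2m (SD, n = 2). The fitted log2 changes were 1.08 ± 0.25, 0.94 ± 0.20 and 1.24 ± 0.26 (SE), with adjusted p-values of 0.0657, 0.0623 and 0.0611 in limma.

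Reads of these genes cannot be fully separated from those of their neighbours, since the strand setting of the counting is not stated. H2-D1 overlaps H2-L, a class I gene on the same strand, over 3607 of the 4403 bp of H2-D1. The levels of H2-L, at 4.80 and 5.94 RPKM in WENRC and 9.08 and 11.9 in ENRI, can thus come largely from the same reads. They are not a separate reading of a second gene. B2m lies inside Patl2 on the other strand, which had 0.692 and 0.782 RPKM in WENRC and 1.29 and 1.89 in ENRI over its whole length.

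The genes that supply peptides had low levels, all higher in ENRI. Tap1, a subunit of the peptide transporter, had 0.564 and 0.548 RPKM in WENRC and 0.767 and 0.734 in ENRI, a log2 change of 0.24 ± 0.12 (SE) with an adjusted p of 0.192 in limma. Its partner Tap2 had 0.288 and 0.237 RPKM in WENRC and 0.464 and 0.326 in ENRI. The immunoproteasome subunit Psmb8 had 0.0594 and 0.166 RPKM in WENRC and 0.200 and 0.583 in ENRI, and Psmb9 had 0.274 and 0.186 RPKM in WENRC and 0.499 and 0.496 in ENRI. The libraries of the media did not overlap for any of the 4, and in batch 1 the intervals of the ratio lay above 1, at 1.36 (1.09 to 1.69), 1.61 (1.24 to 2.12), 3.37 (1.22 to 11.6) and 1.82 (1.21 to 2.78) for Tap1, Tap2, Psmb8 and Psmb9. In batch 2 those of Tap1 (1.34, 0.949 to 1.91) and Tap2 (1.37, 0.855 to 2.27) reached below 1. The 4 genes form a tight cluster on chromosome 17, with Psmb9 and Tap1 226 bp apart on opposite strands, Psmb8 970 bp after Tap1 and Tap2 3025 bp after Psmb8. Nlrc5, the transactivator of class I promoters, had the lowest mean of all members in each medium, at 0.0170 and 0.0357 RPKM in WENRC and 0.0126 and 0.0174 in ENRI, from 15 to 24 reads.

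Tests on recovered read counts gave more calls. EdgeR's quasi-likelihood test called Irf1, H2-K1, H2-D1 and B2m higher in ENRI (adjusted p from 0.0424 to 0.0427) and no member lower, where 5.60% of tested genes were called higher and 2.84% lower. DESeq2 called the same 4 members and no other, where 14.7% of genes were higher and 8.89% lower. With the batch as a block, edgeR again called these 4 (5.32% of genes higher, 2.72% lower), and limma called no member, as it called 0.00% of all genes. The scaling of the count tests differs from that of the column totals, with a median change of all tested genes of −0.03 in edgeR and −0.00 in DESeq2 in place of −0.21. Over 15 alternative settings, the adjusted p lay between 5.71e-06 and 0.414 for Irf1, 4.71e-05 and 0.414 for B2m, 1.29e-05 and 0.437 for H2-K1 and 4.08e-05 and 0.420 for H2-D1, and these genes passed under 6, 5, 4 and 4 of the settings. The authors' deposited table, which used edgeR with the batch as a term, listed 5 members higher in ENRI at an FDR under 0.05, where 5.65% of all symbols were. In the authors' deposited table the log2 change and FDR were 1.55 and 0.00388 for Irf1, 2.27 and 0.00369 for Mx1, 1.36 and 0.00901 for H2-K1, 1.24 and 0.0232 for H2-D1 and 1.57 and 0.00330 for B2m. Ifit2 was the only member listed as lower in the authors' deposited table (−2.27, FDR 0.0497), where 3.06% of all symbols were lower.

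H3K27me3 lay at the promoter of 1 of the 29 members, Isg15, in both media. A promoter was counted as marked where a broad region of the deposited list came within 2 kb of the transcription start, and 10.5% of all symbols were marked in WENRC and 8.76% in ENRI. In WENRC the region (mm9, chr4:155575868-155579715) began 0.941 kb upstream of the Isg15 start, was 3847 bp long and had a fold over input of 5.86 in the deposited list. In ENRI the region (chr4:155576734-155579277) began 1.807 kb upstream, was 2543 bp long and had a fold of 5.84. Neither reached into Isg15 itself, and both spanned the start of AW011738, which runs in the opposite direction 2466 bp away and had at most 0.158 RPKM. Isg15 was thus read at 0.961 to 1.01 RPKM in 3 libraries with the mark upstream in both media. With the narrow lists Usp18 was marked as well in ENRI, by a region 1.473 kb from its start, where 19.6% of all symbols were marked (17.8% in WENRC). The ENRI region of Isg15 lies outside a promoter of 1 kb and overlaps one of 2 kb by under 500 bp, so that under either setting 0 members were marked in ENRI.

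No class I member had a broad region within 2 kb of its start, and neither had Irf1. The nearest broad region was 38.6 kb from H2-K1, 57.0 kb from H2-D1, 146.4 kb from B2m and 133.4 kb from Irf1 in WENRC, and 40.65, 67.8, 148.9 and 48.4 kb away in ENRI. Over all members the distance ran from 0.941 to 598.3 kb in WENRC (median 86.4) and from 1.81 to 1505 kb in ENRI (median 65.5). Inside the gene bodies, narrow regions covered 1452 bp of Nlrc5 in WENRC and 8261 bp in ENRI, and 3941 bp of Oas2 in ENRI. With 1 ChIP library per medium, none of these differences between media has a replicate check.

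**Figure D3:**
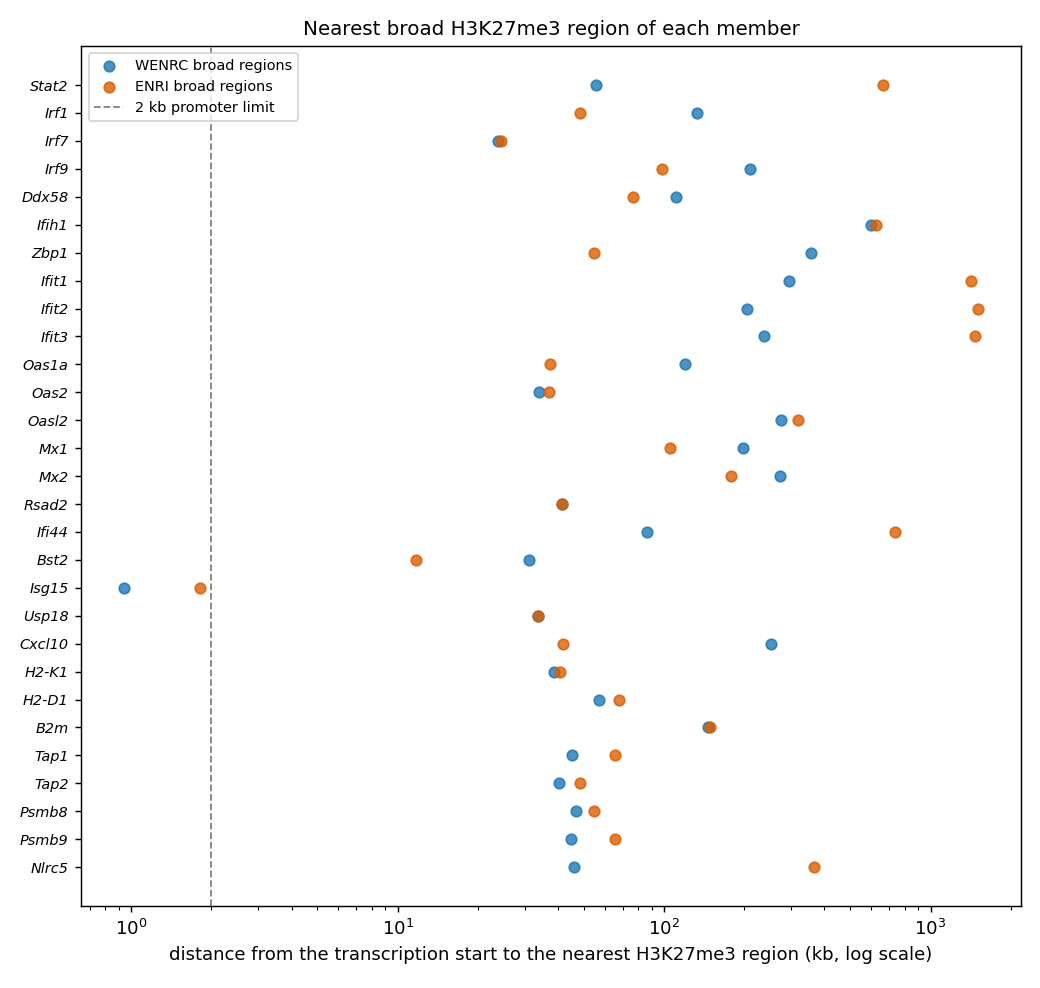
Distance in kb (log scale) from the transcription start of each member to the nearest broad H3K27me3 region, blue for WENRC and orange for ENRI, with the dashed line at the 2 kb promoter limit. Isg15 is left of the line in both media, and the other 28 members lie to its right.

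The rest of the pathway was read from lists of related genes, none of which had a gene past the threshold in limma. The count tests did call some, named here after their values were seen. In edgeR these were Jak2, Ifi27l2b, Parp12, Parp14, Nmi, H2-Q2 and H2-T23 higher and Mb21d1, Ifitm3 and Ifna13 lower in ENRI. Ifitm3, a membrane protein that restricts virus entry, had 5.90 and 4.87 RPKM in WENRC and 0.595 and 0.165 in ENRI, with an adjusted p of 0.0560 in limma, 0.0432 in edgeR and 7.34e-06 in DESeq2. DESeq2 called 7 of 9 receptors and kinases, 3 of 11 signalling factors and 7 of 23 other class I genes higher and 0 of them lower. It called 4 of 13 sensors and 6 of 24 interferon-inducible genes higher, and 1 and 2 lower. Over all tested genes DESeq2 called 14.7% higher and 8.89% lower, and edgeR 5.60% and 2.84%. Among 9 receptor and kinase genes, ENRI had the higher level for 8, 4 of them at an unadjusted p under 0.05, and the median was 0.45 on the log2 scale. Of all tested genes 65.7% were lower in ENRI, and at that limit 12.0% were higher and 26.9% lower. Ifngr1 and Ifngr2, the chains of the interferon gamma receptor, had changes of 0.78 ± 0.25 and 1.09 ± 0.27 (SE), and Il10rb, a chain shared by the type III interferon and interleukin 10 receptors, 0.99 ± 0.26. Ifngr1 had 5.93 and 7.84 RPKM in WENRC and 11.3 and 12.9 in ENRI, so that its media did not overlap. Other signalling factors and inhibitors were mixed, with 4 of 11 higher and a median of −0.13. Among them Irf3, a factor activated by nucleic acid sensors, had −0.42 ± 0.19, and Irf2, a relative and antagonist of Irf1, 0.93 ± 0.22. Sensors and adaptors were mixed too, with 6 of 13 higher and a median of −0.11. At an unadjusted p under 0.05 in limma, 1 was higher and 3 were lower. Those 3, named after their values were seen, were Dhx58 (−0.70 ± 0.15), Tmem173 (−0.69 ± 0.20) and Mb21d1 (−0.91 ± 0.15). The most transcribed of the list were the adaptor Ticam1 (0.73 ± 0.33), the ubiquitin ligase Trim25 (0.42 ± 0.16) and the kinase Ikbke (0.47 ± 0.15).

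Other interferon-inducible genes were higher in 10 of 24 cases, with a median of −0.11. The most transcribed were Lgals3bp (−0.17 ± 0.39), Ifi27l2b (0.82 ± 0.24) and Lgals9 (−0.19 ± 0.23). Other class I pathway genes were higher in 13 of 23 cases (8 at an unadjusted p under 0.05, against 1 lower, where 12.0% and 26.9% of all tested genes were), with a median of 0.26, and 3 genes chosen after their values were seen, the class I relatives H2-Q2, H2-T23 and H2-T3, had changes of 1.80 ± 0.28, 1.18 ± 0.16 and 1.19 ± 0.25 (SE). The most transcribed genes of that list were the chaperones Calr (−0.70 ± 0.29) and Canx (−0.33 ± 0.20) and the class I gene H2-Q10 (0.96 ± 0.34). Constitutive proteasome subunits, which the immunoproteasome subunits replace, had −0.08 ± 0.12 (Psmb5), 0.24 ± 0.19 (Psmb6) and −0.44 ± 0.12 (Psmb7). Class I sequences are similar to each other, so reads may be split between them.

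**Figure D4:**
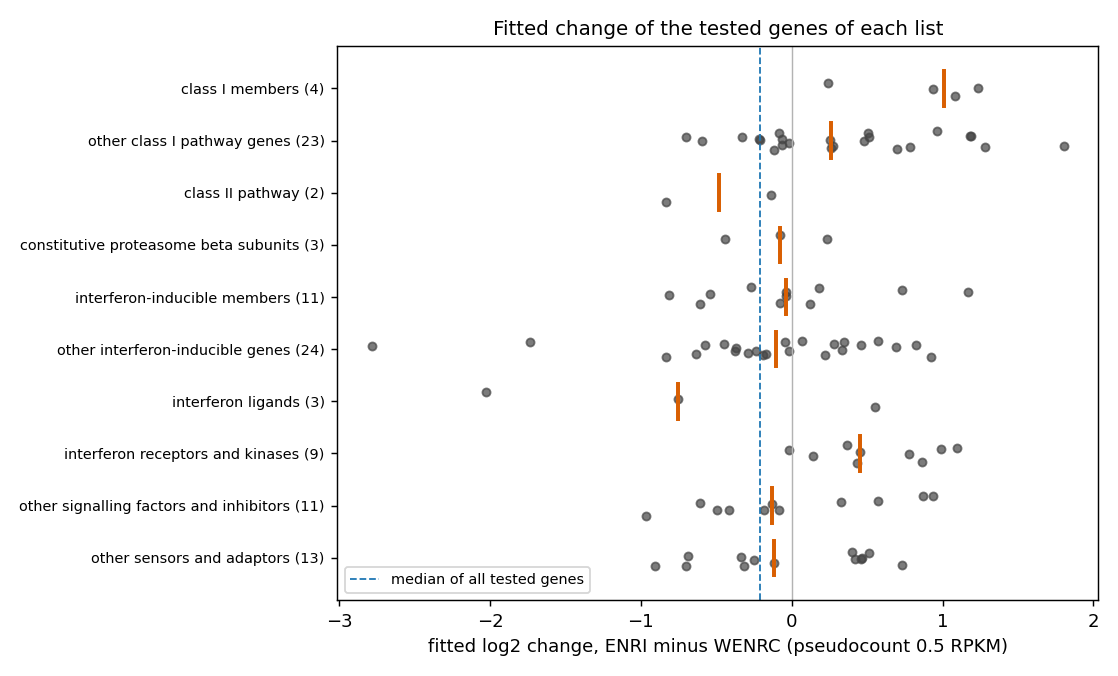
Fitted log2 change, ENRI minus WENRC, of the tested genes of each list (1 point per gene, number tested in brackets), with the list's median as an orange bar and the median of all tested genes, −0.21, as a dashed line. The class I members have a median of 1.01, the receptors and kinases 0.45 and the interferon-inducible members −0.04.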

How the data were processed

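The authors deposited gene body reads per transcript (build mm9) as a signal scaled to the same total in each library, counted with HOMER 4.3 (analyzeRepeats) per the file headers and the submitters' processing notes, which also name FastQC, Bowtie and Bowtie2. Low values were whole multiples of 1 step in 100% of cases (tolerance 0.1 reads), so whole read counts were recovered from the deposited values. RPKM was computed here from the scaled reads per column total, and 4 columns of the authors' own RPKM were not used. Log2 changes, p-values and FDR in the authors' deposited table came from edgeR with batch as a term, per the file headers. The fold (ratio) over input and the score of H3K27me3 regions are the authors' deposited HOMER values, called in each library alone against input.

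The longest transcript of each symbol was kept (33022 transcripts). Genes with at least 0.5 RPKM in 2 libraries were tested with limma 3.58.1 (R 4.3.3, mean trend, no block) and by edgeR 4.0.16 and DESeq2 1.42.0 on recovered reads. The fits were also run on simulated counts with the same dispersion for every gene and no batch effect. That run does not show how the fits perform on these data. Paired deviations of same-batch libraries correlated at 0.0126, and the titles number mice in both media, but columns could not be tied to mice, so pairing by batch was an alternative. P-values measure the spread between these libraries. A motif was searched on both strands. All members are named, and of every other list the genes past the threshold and up to 3 with the highest mean RPKM, of which 1 is not reported here. The transcript with the most reads in place of the longest was an alternative chosen after seeing the data. Members and lists were chosen with earlier results of these data known. Input and H3 libraries were used only through the authors' calls.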

Additional observations from a re-analysis of the deposited data

Results flagged for a closer look

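For Ifih1 and Oas2 the counting interval of the ENRI to WENRC ratio lay above 1 in batch 1 and below 1 in batch 2. The ratio of Ifih1 was 1.16 (exact 95% interval for counting error 1.05 to 1.28) in batch 1 and 0.662 (0.550 to 0.796) in batch 2. That of Oas2 was 1.54 (1.09 to 2.1999) in batch 1 and 0.0532 (0.0139 to 0.146) in batch 2, where the ENRI library held 4 reads. With 1 library per medium in a batch, the difference between the batches itself was not tested.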

How the results depend on the processing

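The differences of Irf1, H2-K1, H2-D1 and B2m kept their direction under all 15 alternatives, and the promoter mark of Isg15 was found in WENRC under every alternative but the limit of 8-fold over input. The number of genes called and the members among them were not stable. Against 17 genes (7 higher, 10 lower) and 0 members, a pseudocount of 0.1 gave 1 gene, no filter 0 (5201 genes at an unadjusted p under 0.05), quantile normalization 929 (507 higher, 422 lower) with 1 member, Irf1, and a filter of 10 reads 1491 (544 higher, 947 lower) with 3 members, Irf1, Mx1 and B2m. DESeq2 called 2738 genes (1707 higher, 1031 lower), and edgeR 979 (650 higher, 329 lower), each with 4 members. Median centring called 7 higher and 5 lower. Leaving out 1 library gave, on the assumption that the single one left varies as the complete pair does, 0 to 5794 genes and 0 to 7 members called. The highest counts came without the ENRI library of batch 1 (higher Irf1, H2-K1, H2-D1 and B2m, lower Oas1a, Bst2 and Isg15), and 0 genes passed in limma without the WENRC library of batch 1 or batch 2 (1675 and 1354 at an unadjusted p under 0.05). In contrast, 685 genes and 0 members passed in limma when the ENRI library of batch 2 was left out.

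The members' median change, 0.12, was 0.16 with a pseudocount of 0.1, 0.035 with the filter of 10 reads, 0.28 after quantile normalization, 0.27 after median centring, 0.43 in edgeR, 0.46 in DESeq2, and 0.12 to 0.15 with 1 library left out.

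Where a replicate block paired the libraries of a batch, limma called 0 genes and 0 members (3839 genes at an unadjusted p under 0.05), and edgeR called 932 genes (617 higher, 315 lower) and 4 members, with a median of 0.41 over the members. Deviations of libraries with the same batch number correlated at 0.0126. In edgeR with the replicate block Irf7, Irf9 and Ifih1 were at 0.21, 0.21 and 0.063.

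The small changes of Irf7, Irf9 and Ifih1 turned positive elsewhere too, at 0.11, 0.11 and 0.073 with median centring, 0.21, 0.19 and 0.11 in edgeR and 0.24, 0.23 and 0.14 in DESeq2. After quantile normalization Ifih1 was at 0.28 and Mx2 at 0.016. With 1 library left out, Irf7 ranged from −0.12 to 0.047, Irf9 from −0.22 to 0.15, Ifih1 from −0.29 to 0.14 and Stat2 from −0.011 to 0.26. The causes were not tested.

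With a limit of 8-fold over input 0 members were marked in either medium. In ENRI the count was 2 with the narrow list (Isg15 and Usp18) and 0 with a promoter of 1 kb or an overlap of 500 bp. The 14 members left out by the filter had low RPKM, and all but Cxcl10, with 1 to 5 reads a library, reached 10 reads in at least 2 libraries.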

Other observations

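Most interferon ligand genes had few reads or none, with 10 of 18 at 0 reads in all 4 libraries and 3 above the filter. Ifnk, the gene of interferon kappa, had 1.30 and 1.05 RPKM in WENRC and 1.73 and 2.19 in ENRI, a log2 change of 0.55 ± 0.17 (SE). Ifna13 had 2.46 and 3.04 RPKM in WENRC and 0.210 and 0.387 in ENRI, from 52 and 23 reads against 5 and 5. Neither passed in limma, and Ifna13 was called lower by edgeR (adjusted p of 0.0468) and DESeq2 (0.00528) but not by edgeR with the batch as a block. Of 7 class II genes 5 were below the filter, and the libraries of the media overlapped for 5. Cd74, the invariant chain, had 1.00 and 1.06 RPKM in WENRC and 0.339 and 0.381 in ENRI, and H2-DMa, a peptide editor, had 4.85 and 4.42 RPKM in WENRC and 5.47 and 3.14 in ENRI.

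The class I relatives H2-Q1, H2-Q6, H2-Q7 and H2-Q8 had a broad H3K27me3 region at their promoters in WENRC and not in ENRI, at folds over input of 4.00, 5.48, 6.25 and 5.48 in the deposited list, with H2-Q6 and H2-Q8 sharing a region. These were the 4 marked in WENRC among 28 other class I pathway genes, where 10.5% of all symbols were marked. In ENRI 0 of the 28 were marked, where 8.76% of all symbols were. Gbp7 and Slfn5, among 52 other interferon-inducible genes, also had a broad region in WENRC and not in ENRI. H2-Q1 had 1.07 and 0.572 RPKM in WENRC and 1.94 and 3.58 in ENRI, whereas H2-Q7 had 0.704 and 0.796 RPKM in WENRC and 0.416 and 0.247 in ENRI, and H2-Q6 overlapped between the media. In the narrow list of ENRI, H2-Q7 and Slfn5 were still marked. Irf5, a factor of inflammatory signalling, had a broad region in ENRI and not in WENRC, but was marked in the narrow lists of both media, with 1.10 and 0.900 RPKM in WENRC and 0.600 and 0.373 in ENRI. The H2-Q genes, Gbp7, Slfn5 and Irf5 were chosen after their values were seen. There was 1 ChIP library per medium, so these differences have no replicate check, and the similar H2-Q sequences may share reads.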
